A study of Homo sapiens with 2 samples.

Results

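The loci described here carry the name of another gene followed by AS and a number, such as ZNFX1-AS1, the naming form for an RNA read from the opposite strand of a named gene. They were found by that form of the gene name alone, without use of any expression value, and number 707 rows under 704 symbols among the 56586 rows of each table. The sense partner is the row named by the part before the hyphen, and 688 of the 704 symbols had one, with 590 distinct partner genes. Of these partners 69 had several antisense loci, up to 5 for a single gene.

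RNA came from HCT116, an established human colon cancer line of epithelial cells, and was read as paired ends in 2 libraries. The libraries, named PF and PJ, are biological replicates of a single group grown in medium with fetal bovine serum. The labels name no treatment and no genetic change, and do not explain the letters. The study concerns risk variants for colon cancer, and its normal colon libraries were not analysed here. With a single group nothing could be tested between conditions, so values are given per library, with the authors' 95% bounds for some of the leading loci, and counts stand beside the same count over all symbols.

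Antisense RNAs arise in several ways. Many start beside the promoter of a neighbouring gene and are read away from it, others start inside or beyond a gene and run back through its exons, and the nuclear exosome degrades many such RNAs soon after they are made. A few are abundant, among them hosts of small nucleolar RNAs, which guide the modification of ribosomal RNA, while others have been studied for effects on the chromatin or the messenger RNA of the gene they are named for.

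FPKM counts fragments per kilobase of transcript, scaled to all mapped fragments, so levels of different genes are compared here per length. Whether the authors assigned fragments by strand is not given in the sources used here. Without strand, reads from an antisense RNA and from the gene opposite cannot be told apart where their exons overlap, and in a bulk sample fewer cells with an RNA cannot be told apart from less RNA per cell. All 5 epithelial markers (EPCAM, KRT8, KRT18, KRT19 and CDH1) reached 1 FPKM in each library, and none of 6 markers of leukocytes, endothelium, fibroblasts, hepatocytes and B cells exceeded 0.247 FPKM. CDH1, which encodes E-cadherin, was at 21.9 FPKM in PF against 1.795 in PJ, so the replicates were not alike in every gene of this line.

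The annotated start regions of 7 loci are printed as examples from both ends of the range of levels, chosen after their values were seen. ZNFX1-AS1, THAP9-AS1 and EPB41L4A-AS1 had the highest levels of all, TMEM161B-AS1, FLVCR1-AS1 and RSBN1L-AS1 were higher in PJ and start back to back with their sense genes, and EZR-AS1 was nearly silent beside an abundant sense gene. The sequences are from RefSeq, build GRCh38.p14, in windows from 250 bases before to 50 bases after the annotated start, each cut to its longest stretch outside the untranslated regions that GENCODE 29 gives to coding genes. No 5′ end was measured in HCT116 itself. They are read 5′ to 3′ on the strand of the antisense RNA, and the last 50 bases of each are the first bases of that RNA, the rest lying upstream of it. Capitals mark matches on either strand to the 5 motifs searched. These are GGGCGG (the GC box bound by SP1), CCGGAAG (a site of ETS factors), CCAAT (the box bound by NF-Y), TATAAA (the TATA box) and TGACGTCA (the cyclic AMP response element).
ZNFX1-AS1: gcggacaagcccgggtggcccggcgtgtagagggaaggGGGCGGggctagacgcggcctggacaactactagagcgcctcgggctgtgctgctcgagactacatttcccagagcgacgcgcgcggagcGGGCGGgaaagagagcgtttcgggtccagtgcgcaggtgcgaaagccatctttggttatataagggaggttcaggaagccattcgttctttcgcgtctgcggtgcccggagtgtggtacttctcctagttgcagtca
THAP9-AS1: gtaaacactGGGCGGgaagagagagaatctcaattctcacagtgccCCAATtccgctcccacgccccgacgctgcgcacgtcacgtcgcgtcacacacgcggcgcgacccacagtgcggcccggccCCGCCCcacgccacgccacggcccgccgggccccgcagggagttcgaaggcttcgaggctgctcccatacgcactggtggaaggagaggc
EPB41L4A-AS1: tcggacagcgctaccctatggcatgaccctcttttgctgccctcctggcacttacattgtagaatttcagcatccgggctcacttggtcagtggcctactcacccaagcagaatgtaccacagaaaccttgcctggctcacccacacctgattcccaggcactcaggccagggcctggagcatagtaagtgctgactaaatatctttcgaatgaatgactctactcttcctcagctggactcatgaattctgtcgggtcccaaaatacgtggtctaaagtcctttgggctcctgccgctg
TMEM161B-AS1: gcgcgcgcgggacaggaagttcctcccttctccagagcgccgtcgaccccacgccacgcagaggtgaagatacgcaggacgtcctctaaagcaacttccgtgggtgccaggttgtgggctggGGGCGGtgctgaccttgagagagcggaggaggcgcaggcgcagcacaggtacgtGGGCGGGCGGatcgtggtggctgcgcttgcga
FLVCR1-AS1: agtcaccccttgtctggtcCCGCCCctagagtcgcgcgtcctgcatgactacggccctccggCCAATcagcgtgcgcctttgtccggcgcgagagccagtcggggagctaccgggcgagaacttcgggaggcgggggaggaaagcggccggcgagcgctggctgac
RSBN1L-AS1: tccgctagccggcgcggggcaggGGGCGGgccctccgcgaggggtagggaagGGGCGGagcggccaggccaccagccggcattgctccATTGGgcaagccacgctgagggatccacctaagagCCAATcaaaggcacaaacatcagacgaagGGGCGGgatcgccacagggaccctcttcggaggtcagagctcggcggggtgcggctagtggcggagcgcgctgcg
EZR-AS1: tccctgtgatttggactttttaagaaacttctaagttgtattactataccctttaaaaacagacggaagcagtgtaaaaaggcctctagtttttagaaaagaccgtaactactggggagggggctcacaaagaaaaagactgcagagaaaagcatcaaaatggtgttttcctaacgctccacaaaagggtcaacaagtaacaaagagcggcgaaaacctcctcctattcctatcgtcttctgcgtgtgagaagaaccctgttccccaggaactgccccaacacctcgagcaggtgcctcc

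These stretches lie at chr20:49278427-49278691 (+ strand) for ZNFX1-AS1, chr4:82900867-82901082 (- strand) for THAP9-AS1 and chr5:112160276-112160575 (+ strand) for EPB41L4A-AS1. The others are chr5:88268858-88269065 (+ strand) for TMEM161B-AS1, chr1:212858089-212858254 (- strand) for FLVCR1-AS1, chr7:77696216-77696442 (- strand) for RSBN1L-AS1 and chr6:158817729-158818028 (+ strand) for EZR-AS1, all in GRCh38.p14. RefSeq lists ZNFX1-AS1 as ZFAS1, TMEM161B-AS1 and FLVCR1-AS1 as divergent transcripts of those genes, and RSBN1L-AS1 as APTR. The printed stretches hold 26 CG dinucleotides for ZNFX1-AS1, 26 for THAP9-AS1, 22 for TMEM161B-AS1, 20 for FLVCR1-AS1 and 22 for RSBN1L-AS1, against 7 for EPB41L4A-AS1 and 8 for EZR-AS1. GGGCGG was found 2 times in ZNFX1-AS1 and in THAP9-AS1, 3 times in TMEM161B-AS1, where 2 of the matches overlap, 3 times in RSBN1L-AS1 and once in FLVCR1-AS1. The stretches of EPB41L4A-AS1 and EZR-AS1 hold none of the 5 motifs. A match is a description of the letters and not of a bound site.

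Most named antisense RNAs were near silent in HCT116. Of 704 loci 76 (10.8%) reached 1 FPKM in each library, the level called expressed here, against 27.9% of all 51609 symbols, 57.3% of protein-coding symbols and 7.88% of loci with a LINC name, the class of intergenic noncoding RNAs. Only 8 were at 10 FPKM or more in both, 432 were under 0.1 FPKM in both and 101 were listed at 0 in both. The median of the mean level was 0.0193 FPKM. Among expressed loci the median was 3.12 FPKM, against 4.64 for expressed LINC loci, 13.1 for expressed sense partners and 12.8 for all expressed symbols.

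A single RNA made up much of the signal. ZNFX1-AS1, known as ZFAS1 (ENSG00000177410.8, hg19 chr20:47894715-47905797, + strand), hosts the small nucleolar RNAs SNORD12, SNORD12B and SNORD12C in its introns. Its level was 229 FPKM in PF against 219 in PJ. The deposited estimate for PF lies above its own bounds of 148 to 160, while that for PJ lies inside 210 to 229. Its sense partner ZNFX1, a helicase-like sensor of viral RNA, was at 6.62 and 8.48 FPKM. The antisense RNA was thus far above the sense gene in both libraries, and it gave 30.6% of the summed FPKM of all antisense loci in PF (sum 748) and 23.5% in PJ (sum 932). The 3 small nucleolar RNAs themselves were listed at 0 in both tables.

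THAP9-AS1 and EPB41L4A-AS1 came next. THAP9-AS1 (hg19 chr4:83814639-83822113, - strand) was at 49.5 FPKM (bounds 46.6 to 52.6) in PF and 58.9 (56.0 to 62.4) in PJ, and THAP9, a gene derived from a DNA transposase, was at 2.49 and 3.65. The ranges of antisense and sense levels did not overlap. EPB41L4A-AS1 (hg19 chr5:111496223-111499973, + strand), another small nucleolar RNA host, was at 52.1 FPKM in PF against 42.1 in PJ. It lies inside EPB41L4A, a gene of the band 4.1 membrane protein family, which was at 1.36 and 0.773 FPKM. The small nucleolar RNA inside it, SNORA13, was listed at 10.6 FPKM in PF and at 0 in PJ, and FPKM of RNAs shorter than a fragment is unstable.

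FGD5-AS1, MMP24-AS1 and TTC28-AS1 were high where the gene they are named for was silent. FGD5-AS1 (hg19 chr3:14961854-14989931, - strand) was at 26.6 FPKM in PF against 38.6 in PJ, while FGD5, an activator of CDC42 known from endothelium, was at 0.0253 and 0.0155. Its start lies 840 bp from that of NR2C2, an orphan nuclear receptor read from the other strand, which was at 15.2 and 10.9 FPKM. MMP24-AS1 (hg19 chr20:33804634-33865934, - strand) was at 30.2 and 23.5 FPKM, and MMP24, a membrane-bound metalloproteinase whose span lies inside it, was at or near 0 in both. GENCODE 29 types the MMP24-AS1 identifier as protein coding under the name MMP24OS, so its value need not be that of a noncoding RNA. TTC28-AS1 was at 8.35 and 18.5 FPKM beside TTC28 at 0.0913 and 0.0601, and starts 758 bp from PITPNB, a phosphatidylinositol transfer protein gene at 38.2 and 49.8. In these cases the antisense name pointed to a silent gene, and an expressed gene started nearby on the other strand for FGD5-AS1 and TTC28-AS1.

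OIP5-AS1, also called Cyrano, pairs with the microRNA miR-7 at a long site. It was at 15.8 FPKM in PF against 31.6 in PJ, and both estimates lie above their own bounds of 12.6 to 15.5 and 24.97 to 29.6. OIP5, a protein of the centromere loading machinery, was at 16.8 and 48.1 FPKM. Both members of the pair were thus higher in PJ, and OIP5-AS1 was the lower of them in each library. The tails of the RNAs overlap over 470 exon bases in GENCODE 29.

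Further loci among the 12 highest were expressed below their sense partners. PITPNA-AS1 was at 8.70 and 18.0 FPKM beside PITPNA, a phosphatidylinositol transfer protein, at 34.9 and 51.9, and starts 43 bp from INPP5K, an inositol phosphatase gene. MAPKAPK5-AS1 was at 12.9 and 13.8 beside the protein kinase gene MAPKAPK5 at 28.0 and 26.3. For PITPNA-AS1 (bounds 4.58 to 7.34 and 10.3 to 14.1) and MAPKAPK5-AS1 (9.94 to 12.5 and 10.2 to 13.4) both estimates lie above their own bounds. DGUOK-AS1 was at 6.75 and 17.4 beside DGUOK, the mitochondrial deoxyguanosine kinase, at 74.2 and 104. PXN-AS1 was at 8.65 and 16.1 beside PXN, the focal adhesion adaptor paxillin, at 76.2 and 76.8, and its start lies 56 bp from that of RPLP0, a ribosomal stalk protein at 1148 and 1201 FPKM. PXN-AS1 therefore starts beside one gene and takes its name from another that it meets at the tail. TMEM161B-AS1 was the exception in this group, with 8.11 FPKM in PF and 30.1 in PJ, with deposited bounds of 2.78 to 13.5 and 21.5 to 38.7, beside TMEM161B, a membrane protein gene, at 3.59 and 7.75.

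**Figure D1:**
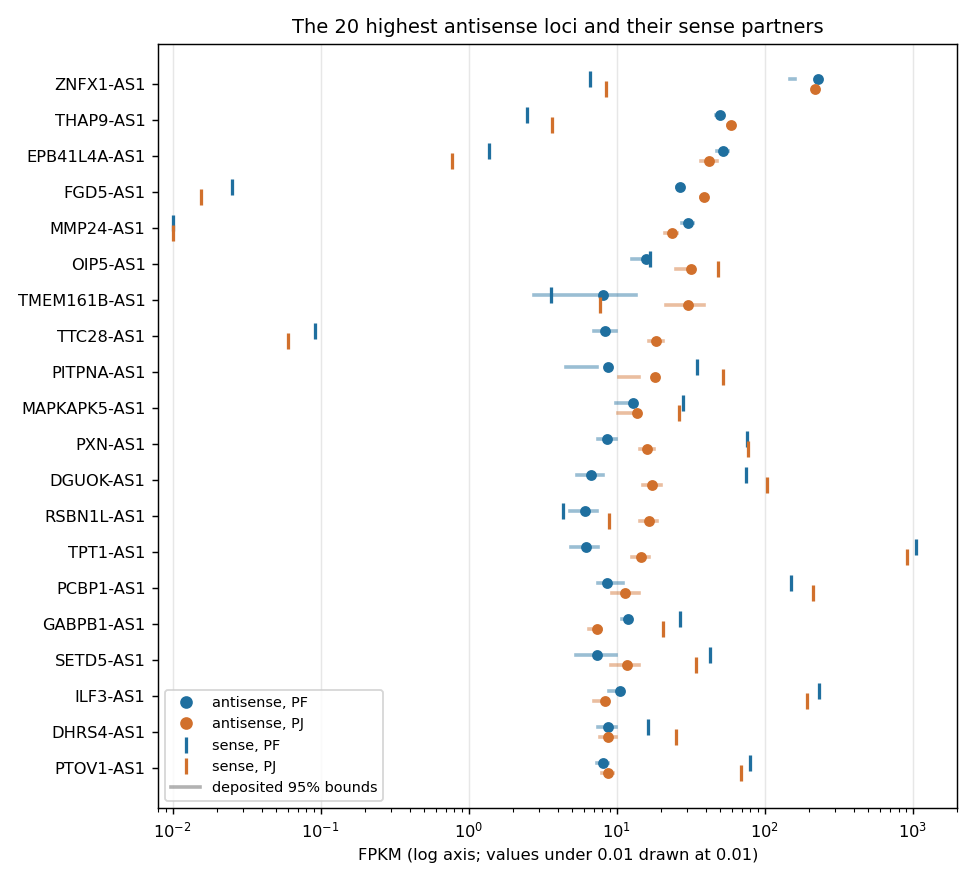
Levels of the 20 antisense loci with the highest mean among those with a sense partner row, in FPKM on a log axis. Circles are the antisense locus with the authors' 95% bounds as bars, vertical ticks the sense partner, blue PF and orange PJ. ZNFX1-AS1 stands far to the right of its partner, TPT1-AS1 far to the left, and the PF estimate of ZNFX1-AS1 lies outside its own bounds.

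Across pairs the sense gene was usually the higher of the partners. Of 412 pairs with a mean of at least 1 FPKM in at least 1 partner, the antisense locus had the higher mean in 20. Where both partners were expressed (57 pairs), the antisense locus was higher in both libraries in 4, its median level was 16.5% of the sense level, and in the lowest pair it was 0.456%. These 4 were ZNFX1-AS1, THAP9-AS1, RSBN1L-AS1 and TMEM161B-AS1, all head-to-head pairs. Levels of the partners were weakly related over these 57 pairs (Pearson r 0.11 of log2 means, Spearman rho 0.20), as a description of pairs that share the same 2 libraries and often share exon bases.

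Other pairs among the 10 largest ratios of mean antisense to mean sense level had partners below 1 FPKM. TTN-AS1 was at 2.03 and 4.27 FPKM beside TTN, the muscle protein titin, at 0.194 and 0.0102. CD27-AS1 was at 4.78 and 6.94 beside CD27, a receptor of lymphocytes, at 0.181 and 0.233. DLGAP1-AS1 (1.37 and 1.42) and DLGAP1-AS2 (2.82 and 2.04) lie inside DLGAP1, a scaffold gene of the synapse at 0.0348 and 0.0783. ENTPD3-AS1 was at 0.344 and 2.23 beside ENTPD3, a nucleotide hydrolase of the cell surface, at 0.00197 and 0.000168. For these 5 loci the antisense value in each library lay above the sense value in that library, at antisense levels between 0.344 and 6.94 FPKM.

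At the other end stood abundant sense genes with silent antisense loci. GNAS, which encodes the stimulatory G protein subunit, was at 437 and 449 FPKM, and GNAS-AS1 at 0.00208 and 0.0270. EZR, the membrane linker ezrin, was at 224 and 334 FPKM, and EZR-AS1 at 0.0501 and 0.0519 (hg19 chr6:159239043-159241625, + strand). NDUFB2 (respiratory complex I), RAD21 (cohesin), PRMT5 (arginine methyltransferase) and MRPL23 (mitochondrial ribosome) had 94.4 FPKM or more in each library, with their antisense loci at 0.0983 or less. For these 6 genes a high sense level stood beside an antisense level under 0.1 FPKM.

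**Figure D2:**
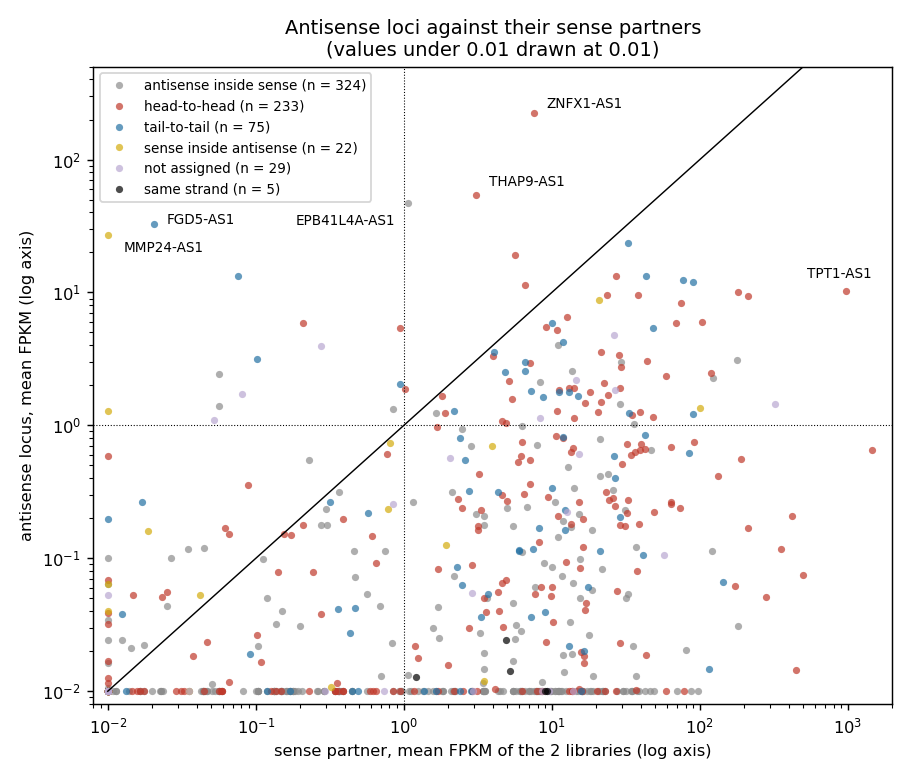
Mean FPKM over the 2 libraries of each antisense locus (y) against its sense partner (x), both on log axes, for 688 pairs coloured by arrangement. The diagonal is equality and the dotted lines mark 1 FPKM. Most points lie below the diagonal, and ZNFX1-AS1, THAP9-AS1, EPB41L4A-AS1, FGD5-AS1 and MMP24-AS1 lie far above it.

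Antisense loci were expressed more often beside more abundant partners. The partner was expressed in 377 of 688 pairs (54.8%). Counted once each, 345 of the 590 partners were expressed (58.5%), near the 57.3% of protein-coding symbols. Of antisense loci with an expressed partner 15.1% were expressed, against 4.82% of the 311 without. By partner mean the share was 4.14% (12 of 290) under 1 FPKM, 9.89% (18 of 182) from 1 to 10, 18.0% (35 of 194) from 10 to 100, and 31.8% (7 of 22) at 100 or more. The share in the highest class lies above the 27.9% of all symbols, with only 22 pairs behind it.

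Arrangement was read from the deposited hg19 positions and the strand that GENCODE 29 gives each identifier. Of 659 pairs with a strand 654 were on opposite strands, and 637 of 688 had overlapping spans. Antisense loci that lie wholly inside their sense gene were the largest class (324) and were expressed in 8 cases (2.47%). Head-to-head pairs, whose start ends face each other, numbered 233 with 36 expressed (15.5%), tail-to-tail pairs 75 with 19 expressed (25.3%), and sense genes inside an antisense span 22 with 2 expressed. Their sense partners were expressed in 47.5%, 63.9%, 69.3% and 18.2% of cases, so the arrangements also differed in the level of the partner.

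A start close to that of another gene went with expression. In 127 head-to-head pairs the starts were within 1000 bp of each other, and 25 of these antisense loci were expressed (19.7%), against 40 of the 532 other pairs with a strand (7.52%). Counting any protein-coding start within 1000 bp on the other strand gave 162 loci with 37 expressed (22.8%), against 32 of 513 (6.24%). Where that neighbour was a gene other than the named partner, 12 of 37 loci were expressed (32.4%). These 12 include FGD5-AS1 beside NR2C2, TTC28-AS1 beside PITPNB, PITPNA-AS1 beside INPP5K and PXN-AS1 beside RPLP0, and in CD27-AS1 and HOXD-AS2 the neighbours TAPBPL (0.394 and 0.476 FPKM) and HOXD3 (0.352 and 0.307) were themselves below 1 FPKM.

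Exon overlap moved with these counts as well. Of the 675 antisense symbols in GENCODE 29, 406 share exon bases with a gene on the opposite strand and 58 of these were expressed (14.3%), against 11 of 269 without such bases (4.09%). The 11 include RSBN1L-AS1, MAFG-AS1, DLGAP1-AS1, DLGAP1-AS2 and HOXC-AS1, which have no exon base under an opposite exon of GENCODE 29. Among all expressed loci the median overlap was 9.82% of exon bases. RNF185-AS1, chosen after its values were seen, was the expressed locus with all of its 353 exon bases under opposite exons, at 3.66 FPKM in PF against 4.41 in PJ beside RNF185 at 9.78 and 12.4. Whether opposite reads added to the level of overlapped loci was not tested.

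**Figure D3:**
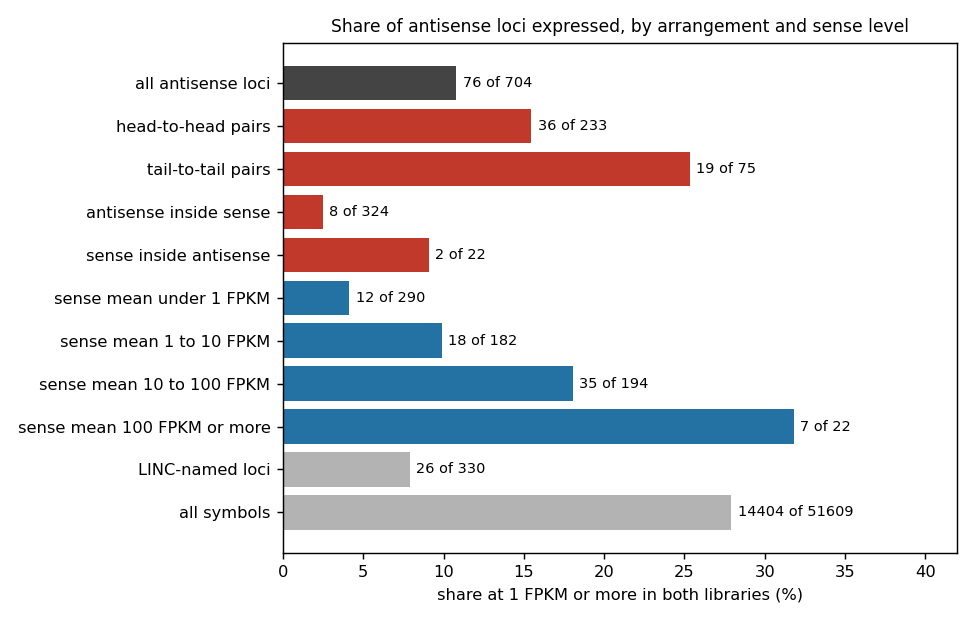
Share of antisense loci at 1 FPKM or more in both libraries, in percent, for all loci, by arrangement (red), by mean level of the sense partner (blue) and beside LINC-named loci and all symbols (grey), with the counts at each bar. Loci inside their sense gene were expressed in 8 of 324 cases and tail-to-tail loci in 19 of 75.

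The start windows of expressed loci were richer in CG dinucleotides. RefSeq windows of 300 bases were matched for 484 of the 704 symbols, 61 of them expressed. The median window held 25 CG for expressed loci, 6 for the others and 14 over all 27305 RefSeq windows. By CG count the share expressed was 3.37% of 178 windows under 5 CG, 13.4% of 112 with 5 to 14, and 20.6% of 194 with 15 or more. Windows of loci inside their sense gene had a median of 3 CG, those of head-to-head loci 22 and those of tail-to-tail loci 12, so base composition and arrangement went together and their parts were not told apart. EPB41L4A-AS1 was among the highest RNAs with only 7 CG in its full window.

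The motifs differed in how their shares compared. GGGCGG occurred on either strand in 59.0% of expressed windows, 30.3% of the others and 44.6% of all RefSeq windows. CCGGAAG occurred in 16.4%, 4.96% and 10.7%, while TATAAA ran the other way, in 1.64%, 13.5% and 11.95%. CCAAT differed little, at 36.1%, 31.0% and 35.7%. TGACGTCA was in 1.64%, 1.65% and 1.98%. Windows rich in CG hold more GC-rich letters of any kind, and no share here was adjusted for that.

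Some antisense loci share their start window with a coding gene. Of 418 pairs with a window for both partners, 73 on opposite strands shared bases, and in these the antisense RNA was expressed in 13 (17.8%) and the sense gene in 55. Among all antisense loci with a window 61 of 484 were expressed, and among all head-to-head loci 15.5%. The sense gene was expressed in 54.8% of all pairs. In RefSeq the starts lie 137 bp apart for FLVCR1-AS1 and FLVCR1, a heme and choline transporter, 171 bp for TMEM161B-AS1, 194 bp for RSBN1L-AS1 and 162 bp for TPT1-AS1. TPT1, the translationally controlled tumour protein, was at 1044 FPKM in PF against 909 in PJ, and TPT1-AS1 at 6.17 and 14.5. The sense levels of these 4 pairs spanned 3.59 to 1044 FPKM and the antisense levels 2.96 to 30.1, so the stronger gene of the set did not have the highest antisense RNA.

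**Figure D4:**
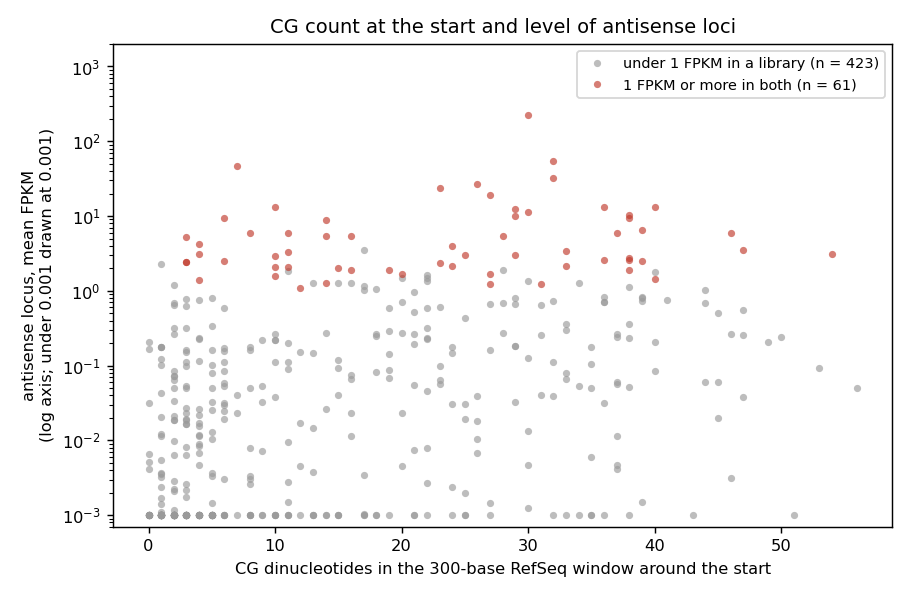
Mean FPKM of 484 antisense loci on a log axis (values under 0.001 drawn at 0.001) against the number of CG dinucleotides in the 300-base RefSeq window around the start. Red points are the 61 expressed loci; they are sparse under 5 CG, where 6 of 178 loci were expressed.

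The HOX clusters have antisense loci named for the cluster and so no partner row. There are 14 of them, and 4 were expressed: HOXA-AS4, HOXA-AS2, HOXC-AS1 and HOXD-AS2. HOXA-AS4, called HOXA10-AS in GENCODE 29 (hg19 chr7:27208238-27211534, + strand), was at 12.5 FPKM in PF against 21.8 in PJ. It overlaps HOXA9 (174 and 87.5 FPKM) and HOXA10 (26.2 and 25.7), homeobox factors that set position along the body axis. HOXA-AS4 was thus higher in PJ, HOXA9 lower and HOXA10 nearly level, and 62.3% of its exon bases lie under opposite exons. HOXA-AS2 was at 2.01 and 2.82, HOXC-AS1 at 2.32 and 2.15, and HOXD-AS2 at 2.26 and 1.92.

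In the HOXB cluster 2 of the 5 antisense loci differed between the libraries in the direction of genes they overlap. HOXB-AS1 was at 1.499 FPKM in PF against 0.102 in PJ, and HOXB-AS2, chosen after its values were seen, at 1.25 and 0.0129. HOXB3, which both overlap, was at 13.1 and 1.67, HOXB2 at 4.37 and 0.378, and HOXB5, inside the span of HOXB-AS3, at 8.76 and 1.92. Each of these 5 was lower in PJ. HOXB-AS3 was nearly level at 0.148 and 0.168, as was HOXB4 inside its span at 0.725 and 0.814. The other HOXB coding genes that HOXB-AS3 overlaps were lower in PJ, namely HOXB3, HOXB5 and HOXB6 (6.12 and 3.17). HOXB-AS5 was at 0.228 and 0.295 while HOXB13, which it overlaps, was at 1.03 and 4.51, and HOXB-AS4 was at 0.147 and 0.0563. HOXA-AS3 in the other cluster at 0.432 and 0.923.

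A list of 50 antisense RNAs often studied in cancer had 34 members in the tables, and 16 of them (47.1%) were expressed, against 10.8% of all named antisense loci. The list was written with results of these data known. Besides the members above, SBF2-AS1 was at 1.94 and 3.16 FPKM, LOXL1-AS1 at 3.88 and 6.55, TMPO-AS1 at 2.50 and 2.47, and GAS6-AS1 at 1.98 and 1.36. CDKN2B-AS1, known as ANRIL and read across the tumour suppressor locus on chromosome 9, was at 0.311 and 1.09 FPKM, beside CDKN2B at 1.25 and 6.67. ZEB1-AS1 was at 0.240 and 1.71 beside ZEB1, a driver of the mesenchymal state, at 0.701 and 2.64, and ZEB2-AS1 was listed at 0 in both.

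Genes listed for RNA decay and double-stranded RNA processing were all present. The list holds the nuclear exosome, its adaptors, the enzymes of double-stranded RNA and other decay factors such as XRN1, XRN2, UPF1 and DCP2. All 26 were expressed, against 27.9% of all symbols and 57.3% of protein-coding symbols. Their values ran from 4.28 to 118 FPKM, and 21 of them reached 10 FPKM in each library. Of the 26 genes 2 (a share below the 10.4% of all symbols with a mean of at least 1 FPKM) were higher in PJ by 2-fold or more, the exosome cap subunit EXOSC3 (8.99 and 53.0 FPKM) and the ring subunit EXOSC4 (48.0 and 97.1), and 1 was lower (5.22% of all symbols were), the ring subunit EXOSC9 (105.5 and 46.0). The helicase gene SKIV2L2, which encodes MTR4, was at 39.3 and 78.7. The median log2 difference of the 26 was 0.16, against 0.22 over all symbols with a mean of at least 1 FPKM.

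More antisense loci were higher in PJ than lower, as was also so over all symbols. A difference is the log2 ratio of PJ over PF after adding 1 FPKM to each value, which understates differences of low genes, and each side is 1 library. Of 100 antisense loci with a mean of at least 1 FPKM, 18 were higher in PJ by 2-fold or more and 4 were lower, against 10.4% and 5.22% of all 15736 symbols at that mean, 10.7% and 4.38% of protein-coding symbols, and 18.2% and 12.1% of 33 LINC loci. After the median PJ to PF ratio of all expressed symbols, 1.19, was divided out, 12 were higher and 4 lower, against 6.29% and 7.14% of all symbols, 6.08% and 6.43% of protein-coding symbols, and 9.09% and 18.2% of LINC loci. The median log2 difference of the 100 was 0.39 as deposited and 0.23 after that scaling, where all symbols had 0.22 and 0.01.

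A locus under 1 FPKM in a library can pass the mean filter only through the library where it is high, and 24 of the 100 did. They include 8 of the 18 higher loci and 3 of the 4 lower ones. Among the 76 loci expressed in both libraries 10 were higher by 2-fold or more (13.2%) and 1 was lower (1.32%), against 8.8% and 3.37% of all symbols expressed in both, and the median was 0.31 against 0.22.

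Among sense partners the counts in the 2 directions were nearly even. Of 364 distinct partners with a mean of at least 1 FPKM, 29 were higher in PJ by 2-fold or more (7.97%) and 28 lower (7.69%), with a median of 0.13. By mean level, 8 of 58 antisense loci from 1 to 3 FPKM were higher by 2-fold or more (13.8%, against 10.8% of all symbols at that level), 5 of 26 from 3 to 10 (19.2% against 12.5%), and 5 of 16 at 10 or more (31.2% against 9.23%). The 5 in the highest class were DGUOK-AS1, TTC28-AS1, TPT1-AS1, RSBN1L-AS1 and TMEM161B-AS1. All were under 10 FPKM in PF and entered that class only through PJ, where they were high, so the shares show no rise with level. The deposited bounds of the libraries lay apart for 16 of the 18 higher and for all 4 lower loci. These loci were picked for the size of their difference, and the same count over all symbols was not made, so it lends them no support. Bounds also lay apart for loci with smaller differences, such as EPB41L4A-AS1 and DLGAP1-AS2.

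PRRT3-AS1 and FAM222A-AS1 had the largest differences upward. PRRT3-AS1 was at 1.47 FPKM in PF against 9.35 in PJ, outside its own deposited bounds in PJ (5.64 to 8.54), while PRRT3, a membrane protein gene, was at 0.853 and 1.04. FAM222A-AS1 was at 0.826 and 6.30, while FAM222A was at 5.41 and 2.67. FLVCR1-AS1 was at 2.96 and 10.0 beside FLVCR1 at 11.1 and 14.2, and RSBN1L-AS1 at 6.09 and 16.5 beside RSBN1L at 4.30 and 8.90. MAFG-AS1 was at 1.49 and 5.63 beside MAFG, a small partner of the stress factor NRF2, at 22.4 and 20.9. GFOD1-AS1 was at 0.225 and 2.26 beside GFOD1 at 1.22 and 2.06, and its bounds overlapped between the libraries. In these pairs the antisense locus differed more than its partner, but they were picked for the size of the antisense difference. RBM12B-AS2, also among the 8 largest upward and described below, differed less than its partner RBM12B (log2 1.44 against 1.70). FAM222A was lower in PJ, while MAFG was nearly level, with bounds that overlapped between the libraries. FAM222A-AS1 and GFOD1-AS1 were under 1 FPKM in PF, so they pass the mean filter only through PJ, where they were high.

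C1RL-AS1 and ST7-AS1 had the largest differences downward. C1RL-AS1 (hg19 chr12:7260648-7275097, + strand) had 5.58 FPKM in PF, with bounds of 4.30 to 6.87, and 1.09 in PJ, with bounds of 0.641 to 1.91, while C1RL, a protease related to complement C1r, was at 4.69 and 3.29. ST7-AS1 was at 3.27 and 0.399 beside ST7 at 13.6 and 8.84. OCIAD1-AS1 was at 3.66 and 0.865 beside OCIAD1 at 122 and 125, and PSMD6-AS2 at 2.13 and 0.298 beside PSMD6, a subunit of the proteasome's regulatory particle, at 84.1 and 94.7. These 4 were the loci at least 2-fold lower in PJ, and none of their partners differed by 2-fold, but they were picked for the antisense difference. ST7-AS1, OCIAD1-AS1 and PSMD6-AS2 were under 1 FPKM in PJ, so they pass the mean filter only through PF, where they were high. RUSC1-AS1 (1.81 and 0.487), ASH1L-AS1 (3.93 and 1.94), SH3BP5-AS1 (2.42 and 1.18) and GABPB1-AS1 (11.8 and 7.31) came next and stayed under 2-fold on the log2(FPKM + 1) scale.

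Of 82 pairs with both means at 1 FPKM or more, both partners differed at least 2-fold in 4, the antisense locus alone in 15 and the sense gene alone in 6. Over all symbols at that mean 10.4% were higher in PJ by 2-fold or more and 5.22% lower, and pairs of other genes were not counted. The 15 include loci under 1 FPKM in a library, such as FAM222A-AS1 and ST7-AS1. Whether antisense loci differ apart from their partners was not tested. RBM12B-AS2 was at 0.680 and 3.54 FPKM beside RBM12B, an RNA-binding protein gene, at 3.38 and 13.3, with all 696 exon bases of the antisense locus under opposite exons. SSTR5-AS1 was at 0.285 and 1.86 beside the somatostatin receptor gene SSTR5 at 1.61 and 7.53. ZNRD1-AS1 was at 0.397 and 1.98 beside the RNA polymerase I subunit gene ZNRD1 at 18.7 and 51.4. Both loci were also higher in PJ with their partners, and both were chosen after their values were seen. RBM12B-AS2, SSTR5-AS1 and ZNRD1-AS1 were under 1 FPKM in PF, so they pass the mean filter only through PJ. With 1 FPKM required in both libraries, 1 of the 4 pairs was left, that of MID1IP1-AS1. MID1IP1-AS1 was the pair with opposite differences, at 1.41 and 4.59 FPKM while MID1IP1, a regulator of fatty acid synthesis that holds the antisense locus inside its span, was at 43.4 and 15.1.

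**Figure D5:**
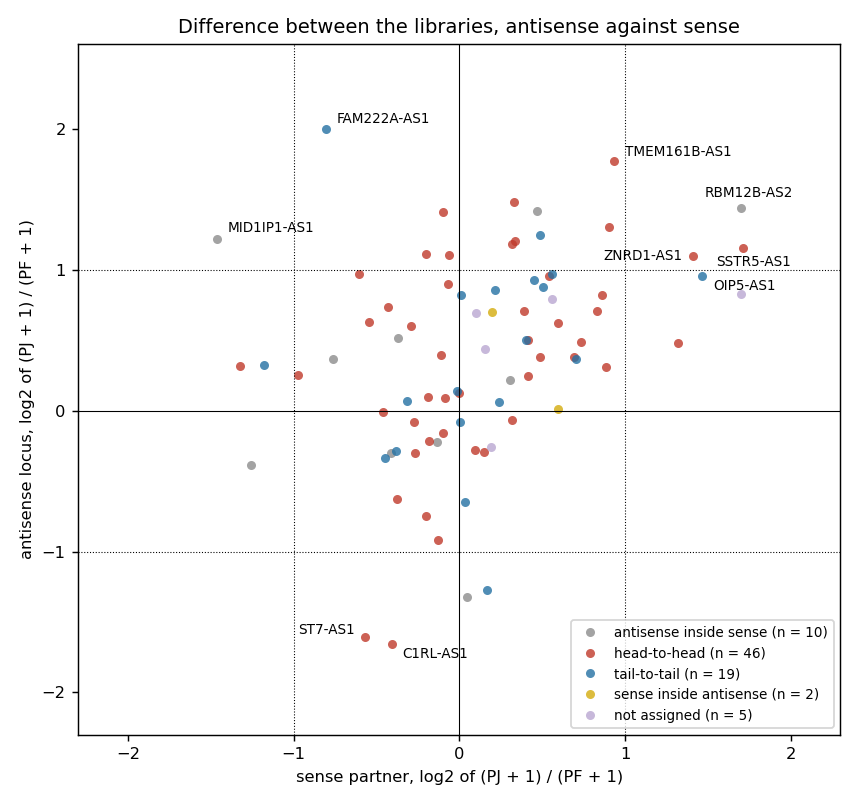
Difference between the libraries, log2 of (PJ + 1) over (PF + 1) in FPKM, of the antisense locus (y) against the sense partner (x) for 82 pairs with both means at 1 FPKM or more, coloured by arrangement. Dotted lines mark 2-fold. RBM12B-AS2, SSTR5-AS1 and ZNRD1-AS1 lie beyond both upper lines, at the upper right. MID1IP1-AS1 lies at the upper left, with the antisense locus higher in PJ and the sense gene lower.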

How the data were processed

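RNA of HCT116 was sequenced as paired-end TruSeq V2 libraries on an Illumina HiSeq, per the labels' protocols. The submitters' processing notes list TopHat2 2.0.8b, TopHat, Cufflinks and hg19. The sources used here name neither the annotation release nor a strand setting. Each library's table, as deposited, holds FPKM with its 95% bounds and a status, per the file headers. Depth is unknown, and the bounds are the measure of precision. p-values were not computed, since there is 1 group of 2 libraries, and nothing in the labels says how their cultures were separated.

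FPKM of rows sharing a symbol were summed, and estimates with status FAIL were missing (0 antisense rows; 2 were LOWDATA). Positions are those of the tables, with starts counted from 1. Strand, gene type and exon overlap came from GENCODE 29 (GRCh38), matched by identifier for 675 of 704 symbols. RefSeq windows were matched for 411 symbols by symbol, 43 by identifier and 30 by synonym; 45 have several windows and the first was used. Thresholds were 1 FPKM in both libraries for expression, and 2-fold with a pseudocount of 1 FPKM at a mean of 1 FPKM or more for differences. Scripts were tested on simulated data. Python 3.11.15, numpy 2.4.6, pandas 2.3.3 and matplotlib 3.10.9 were used.

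The loci and gene lists were chosen with earlier results of these data known. The text names, among pairs with values, the 12 highest antisense means, the 8 largest differences in each direction at a mean of 1 FPKM or more, the 10 largest antisense to sense ratios, the 6 highest sense means over antisense loci under 0.1 FPKM, members of the list of studied antisense RNAs, pairs with opposite 2-fold differences, and expressed antisense loci with no partner row. The printed windows, neighbours, HOX genes and decay genes given as examples, and loci said to be so, were chosen after their values were seen. Alternatives were thresholds, pseudocounts, filters, scaling, bounds and each library alone.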

Additional observations from a re-analysis of the deposited data

How the results depend on the processing

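Of the 76 antisense loci expressed, 22 were left at 5 FPKM, and of the 57 pairs with both partners expressed 14 were left, while 0.5 FPKM gave 89 pairs. The 20 pairs with the antisense locus above its partner became 10 where a partner had to reach 5 FPKM. The 18 loci at least 2-fold higher in PJ became 32 with a pseudocount of 0.1 and 7 at a mean of 5 FPKM or more. The 4 lower loci became 9 at a mean of 0.5 FPKM and 0 at a mean of 5. The 4 pairs in which both partners differ became 7 with a pseudocount of 0.1, 0 at a mean of 5 FPKM and 2 with the median ratio divided out; higher thresholds leave fewer loci to count. With either library alone, 86 to 107 antisense loci were expressed, and 395 to 397 antisense loci had an expressed partner. Both partners were expressed in 66 to 88 pairs (88 without PF), and the antisense locus was higher in 20 to 24 pairs. Differences between libraries cannot be had from 1. Added after seeing the data, the log2 difference of each of the 22 loci at least 2-fold apart was recomputed. With a pseudocount of 0.1 all 22 stayed past 2-fold, which was fixed in advance because a smaller pseudocount can only widen a difference. With the median ratio divided out 6 fell below 2-fold (KTN1-AS1, SSTR5-AS1, TIPARP-AS1, TPT1-AS1, TTC28-AS1 and ZNRD1-AS1). Also added, and restricted to loci at 1 FPKM or more in both libraries, 10 loci were higher, 1 was lower and 1 pair had both partners differing. No direction reversed, and for loci at least 2-fold apart neither a smaller pseudocount nor dividing by a ratio of 1.19 could reverse it. No paired analysis was possible because there is 1 group and no test. Depth is unknown, so values near 0 show only that an RNA was not detectable.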
